A study of Ovis aries with 16 samples.

Results

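The miR-17 family of clusters was described in testicular tissue from 16 male sheep by the known ovine miRNAs listed under miR-17, miR-18a, miR-19b, miR-20a, miR-25, miR-106a and miR-106b, any arm. The deposited values held 5 of them, oar-miR-17-5p, oar-miR-19b, oar-miR-25, oar-miR-106a and oar-miR-106b, among 103 known miRNAs and 271 known and predicted miRNAs in all. Known rows for miR-18a and miR-20a were not listed in these values and were not analysed here. The miRNAs were chosen by name and not by their values.

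Many of these miRNAs are cut from shared primary transcripts. In mammals the miR-17 cluster, named in full for its span from miR-17 to miR-92a, gives miR-17, miR-18a, miR-19a, miR-20a, miR-19b and miR-92a, the paralogous miR-106a-363 cluster gives miR-106a, miR-18b, miR-20b, a further copy of miR-19b, a further copy of miR-92a and miR-363, and the miR-106b-25 cluster, within an intron of the replication licensing gene MCM7, gives miR-106b, miR-93 and miR-25. Their members fall into families by the seed, the bases near the 5′ end that pair with target mRNAs. The miR-17 family takes in miR-17, miR-20a, miR-20b, miR-93, miR-106a and miR-106b, the miR-19 family miR-19a and miR-19b, and the miR-25 family miR-25, miR-92a and miR-363. The clusters are known for promoting the cell cycle and restraining apoptosis, with BIM and CDKN1A among their best studied targets, and in the mouse testis the miR-17 cluster is expressed in spermatogonia and takes part in sperm production.

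Both groups were sexually mature Merino males kept in individual pens, without any genetic or drug treatment. Well-fed males (n = 8) were offered chaff and lupin grain for a 10% increase in body mass, and underfed males (n = 8) were offered less of the same feeds for a change of -10%, over 65 days. RNA was from frozen pieces of the right testis, with 1 library per male, so that each value is an average over germ cells and somatic cells. In such tissue fewer cells of a type and less RNA per cell cannot be told apart. Values are CPM, the reads of a miRNA scaled to a total of 1000000 reads of all miRNAs in its library.

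Libraries held 17163 to 503916 miRNA reads in well-fed males and 27797 to 1058985 in underfed males. Well-fed male 5 and underfed males 6 and 8 had fewer than 100000 reads, and the other 13 libraries are called the deeper libraries. The floor of 3 reads corresponded to 0.0175% of the miRNA reads in well-fed male 5 and to 0.000283% in underfed male 3, for counting error only. Underfed male 1 stood apart from its group: its factor for normalization between libraries (TMM, trimmed mean of M-values) was 1.26, against 0.698 to 1.00 in the other underfed males and 1.08 to 1.39 in well-fed males. The testis label was compared with germ cell markers. All 3 (homologues of miR-34b, miR-34c and miR-449a, miRNAs of spermatocytes and spermatids) were listed, and their summed level was 47497 to 71079 CPM in well-fed males. In underfed males the sum was 10978 to 58155 CPM (median 21506), with underfed males 1 and 8 at 44629 and 58155 CPM. The smooth muscle markers miR-143 and the miR-145 homologue together reached 153985 to 210989 CPM in the well-fed group and 138660 to 215633 CPM in the underfed group. Of 5 white blood cell markers 4 were listed, with sums of 1502 to 3257 CPM against 1292 to 2864 CPM, and miR-223 was not. Of 3 red blood cell markers only the miR-486 homologue was listed, at 2336 to 7829 CPM against 1372 to 8546 CPM, and miR-451 and miR-144 were not. The endothelial marker miR-126 was not listed either.

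The mean levels of the family in well-fed males ran from 47.6 CPM to 13052 CPM. oar-miR-25, the miR-106b-25 product with the miR-92a type of seed, was the most abundant member, and its mean of 13052 ± 2875 CPM (SD, n = 8) in well-fed males placed it at rank 18 of the 271 miRNAs. It averaged 8422 ± 3859 CPM (SD, n = 8) in underfed males, at rank 20. oar-miR-17-5p, the founding member of the miR-17 seed family, came to 819 ± 160 CPM in the well-fed and 522 ± 180 CPM in the underfed group (SD, n = 8 each). The closely similar level of oar-miR-19b, made from copies in more than 1 cluster, was 679 ± 414 and 661 ± 393 CPM (SD, n = 8 each). oar-miR-106b averaged 296 ± 54.0 and 234 ± 81.8 CPM, and oar-miR-106a, from a cluster that is X-linked in mammals, 47.6 ± 10.7 and 38.1 ± 37.9 CPM (SD, n = 8 each).

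The order of the levels was nearly the same in every male. oar-miR-25 exceeded oar-miR-19b in 16 of 16 males, oar-miR-17-5p exceeded oar-miR-106b in 16 of 16, and oar-miR-106b exceeded oar-miR-106a in 16 of 16. oar-miR-19b and oar-miR-17-5p had no fixed order: miR-19b was above miR-17-5p in 7 of 16 males, 2 well-fed and 5 underfed. Of the 3 known members with the miR-17 seed, miR-17-5p was thus the highest and miR-106a the lowest in each male. Levels of single miRNAs in small RNA libraries also carry the efficiency with which each sequence is ligated and amplified, which was not measured here.

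Counts behind these levels were large only for miR-25. It had 163 to 8391 reads per library, against 12 to 498.5 for miR-17-5p, 5 to 1060 for miR-19b and 3 to 261 for miR-106b. oar-miR-106a had 0 to 49 reads per library and 249.5 in total, and it was listed at 0 in underfed male 6. Its highest value, 120 CPM in underfed male 8, came from 6 reads. Multiples of 0.5 reads appeared for oar-miR-17-5p in 7 libraries and for oar-miR-106a in 7, in 4 of them for both, a value that whole reads cannot give. Some reads were therefore divided between matching sequences, with which ones not given in the sources used here, and the levels of these near-identical paralogues are uncertain to that extent. oar-miR-25 and oar-miR-106b had whole reads in all 16 libraries.

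In the genome annotation, 4 of the 5 known members lay in pairs. The RefSeq genes of the ARS-UI_Ramb_v3.0 assembly, which is not the assembly the authors mapped to, have MIR17 and MIR19B next to each other inside LOC132657304. MIR106B and MIR25 are neighbours inside MCM7. MIR106A has neither a host gene nor another miRNA gene nearby in that table.

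Whether underfeeding changed the family was asked first with the deposited CPM. oar-miR-25 ranged from 10555 to 18437 CPM in well-fed males (median 11661) and from 5485 to 17594 CPM in underfed males (median 7250). Underfed males 2 to 8 all lay below every well-fed male, at most at 8763 CPM, whereas underfed male 1 had the highest underfed value. oar-miR-17-5p ranged from 624.8 to 1096 CPM (median 774) under the well-fed diet and from 392 to 938 CPM (median 469) under the underfed one. Here again 7 of 8 underfed males were below every well-fed male, and the exception was underfed male 8. At least 7 of 8 underfed males lay below every well-fed male for 8.2% of the 244 miRNAs that were tested, those that exceeded 5 CPM in 8 or more libraries. After division by the TMM factor, 3 of 8 underfed males were below every well-fed male for miR-25 and 1 of 8 for miR-17-5p. The share over all tested miRNAs was not counted on that scale.

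The other members overlapped between diets. oar-miR-106b ran from 231 to 383 CPM (median 282) with the well-fed diet and from 108 to 359 CPM (median 224) with the underfed diet, and 4 of 8 underfed males were below every well-fed male. oar-miR-106a was between 34.6 and 59.5 CPM (median 49.0) in well-fed males and between 0 and 120 CPM (median 30.3) in underfed males. Its underfed values reached both below and above all well-fed values, in 5 males and 1 male. How many of the tested miRNAs reach such counts was not determined, for miR-106b or for miR-106a. oar-miR-19b was widely spread within both diets, 291 to 1550 CPM (median 572) against 168 to 1277 CPM (median 525), and only underfed male 1 was below every well-fed male for it.

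**Figure D1:**
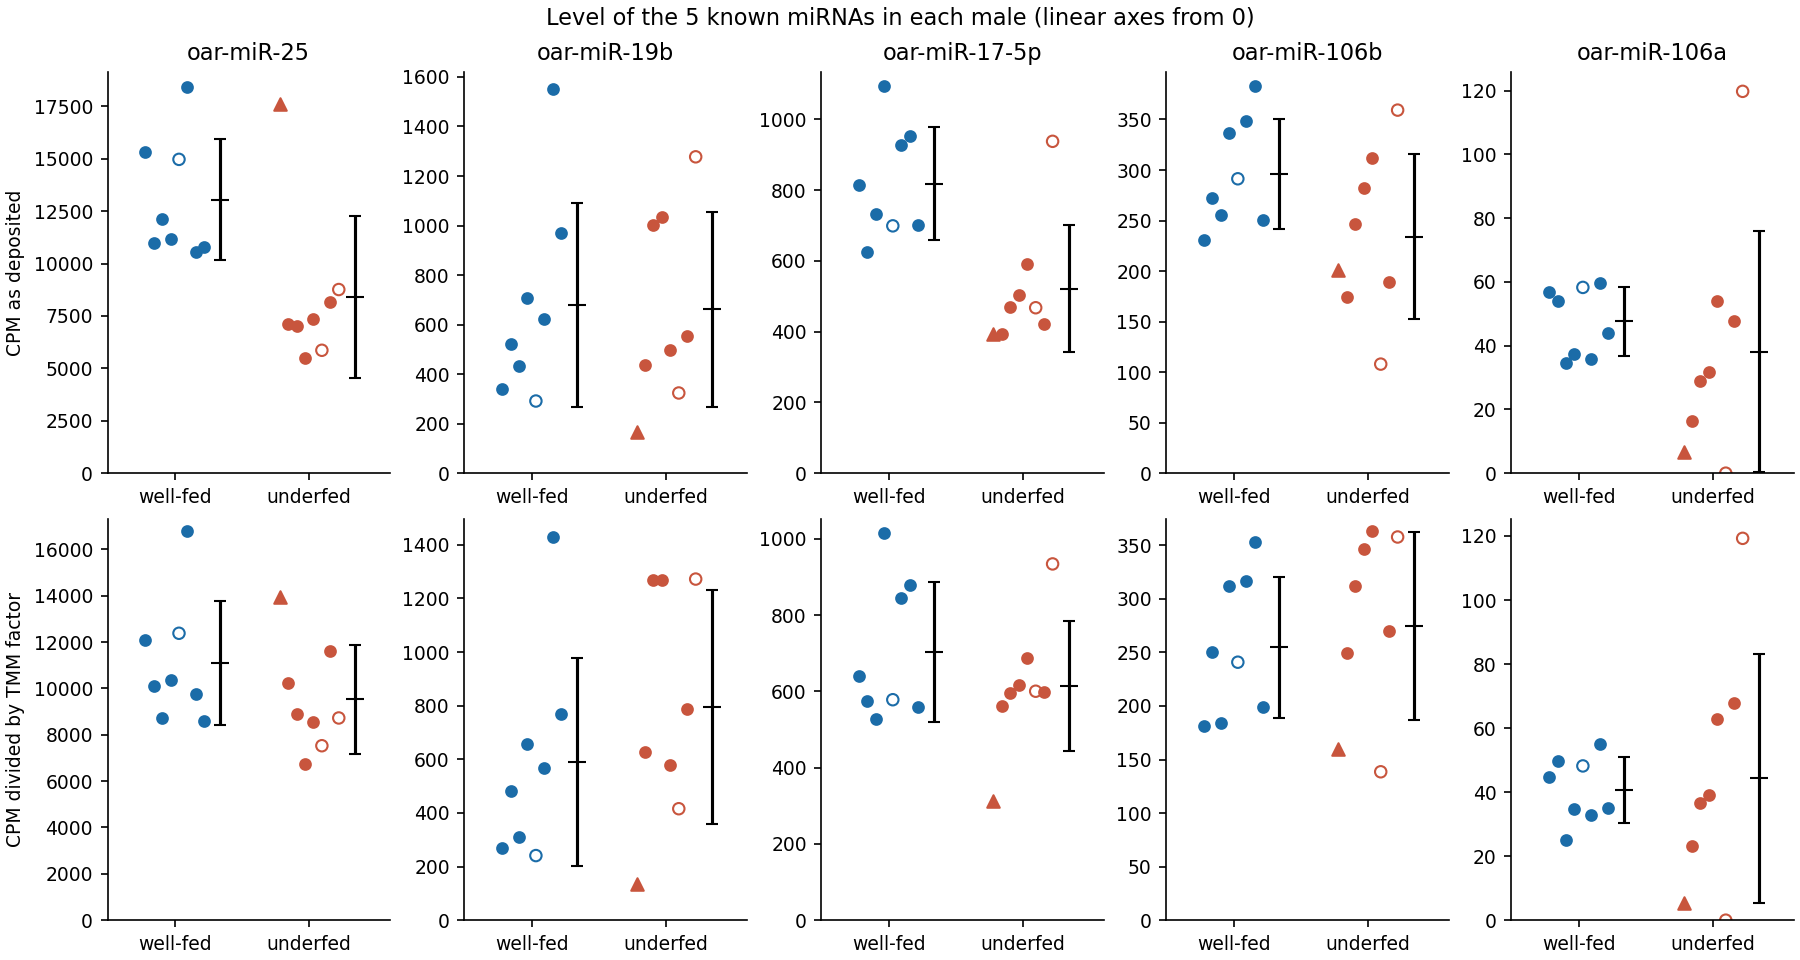
Level of the 5 known members in each male, as deposited CPM (upper panels) and as CPM divided by the TMM factor (lower panels), on linear axes that start at 0. Points are single males in label order, open points the 3 libraries below 100000 miRNA reads, triangles underfed male 1, and black bars mean ± SD (n = 8); for miR-25, 7 of 8 underfed males are below every well-fed male in CPM, and 3 of 8 after division. At least 7 of 8 lie below in CPM for 8.2% of the tested miRNAs, and the share after division was not counted.

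After normalization between libraries none of the 5 members was DE. Differences were fitted by limma on log2(CPM/TMM factor + 1), a miRNA was called DE at a Benjamini-Hochberg FDR below 0.05 with a ratio of mean CPM (FC, underfed/well-fed) below 0.67 or over 1.5, and 3.28% of the 244 tested miRNAs were DE. All 5 members passed the CPM filter, and 0 of 5 had FDR under 0.05 or an unadjusted p under 0.05, against 6.15% and 25.8% of the tested miRNAs. A voom fit of the recovered reads also called 0 of 5, against 26 of the 244 tested miRNAs. The modelled difference was below 0 for 3 members and above 0 for 2, with a median of -0.21 beside -0.076 for all tested miRNAs.

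For oar-miR-25 the log2 fold change (underfed minus well-fed) was -0.22 ± 0.17 (SE; 95% interval -0.58 to 0.13; FDR = 0.418 by limma), with an FC of 0.645. oar-miR-17-5p gave -0.21 ± 0.21 (-0.65 to 0.24; FDR = 0.545 by limma), with an FC of 0.637. Both FC values were past the threshold of 0.67, and neither modelled difference was past the FDR. The difference was 0.072 ± 0.26 for oar-miR-106b (-0.47 to 0.61; FDR = 0.878 by limma) and 0.38 ± 0.42 for oar-miR-19b (-0.50 to 1.26; FDR = 0.570 by limma). oar-miR-106a, with the fewest reads, had the widest interval (-0.73 ± 0.74; -2.28 to 0.81; FDR = 0.543 by limma). That value rested largely on underfed male 6, where miR-106a was listed at 0: without this male it was -0.13, and the ratio of mean CPM was 0.801 as deposited but 1.09 after division by the TMM factors. The interval of miR-19b reached past a doubling and that of miR-106a past a halving, and those of miR-25 and miR-17-5p stayed within both.

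The outcome for miR-25 and miR-17-5p turned on the scaling between libraries. With the CPM as deposited and no TMM factor, the log2 fold change was -0.70 ± 0.20 for miR-25 (FDR = 0.0246 by limma) and -0.68 ± 0.21 for miR-17-5p (FDR = 0.0279 by limma), and both were DE. On that scale 14.8% of the tested miRNAs were DE and lower and 15.6% were lower at FDR under 0.05, and the median over all 244 was itself -0.51. When miRNA and piRNA reads (germline small RNAs of 26 to 32 nt) were scaled together, the median rose to 0.81. The joint log2 fold change was then 0.73 for miR-25 (FDR = 0.0377 by limma), with an FC of 1.02, and 0.74 for miR-17-5p (FDR = 0.0995 by limma), and 34.8% of tested miRNAs were higher at FDR under 0.05. Beside this, miRNA reads over piRNA reads stood on the log2 scale at -1.49 to -0.14 in well-fed males, 0.49 to 1.64 in underfed males 2 to 8 and -0.95 in underfed male 1.

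Relative to the median of all tested miRNAs, each member stayed on the same side under the 3 scalings. A change of scaling moves all miRNAs of a library by the same factor. The distance to the median was thus nearly fixed in advance, apart from the added 1 CPM, and is no separate evidence. oar-miR-25 was -0.15 from the median with TMM, -0.19 without it and -0.083 with joint scaling. oar-miR-17-5p was at -0.13, -0.18 and -0.071. oar-miR-106b was slightly above the median, at 0.15, 0.11 and 0.21, and miR-19b further above it, at 0.45, 0.41 and 0.52. oar-miR-106a was below it, at -0.66, -0.65 and -0.46. These distances are descriptions without a test. The part of the germ cell markers in the differences was not tested. Of the 3 markers, 2 (the homologues of miR-34c and miR-449a) were DE and lower in underfed males. Underfed males 1 and 8 had the highest marker sums of their group. In CPM, male 1 had miR-25 in the well-fed range, but its miR-17-5p, at 392 CPM, was the lowest of the underfed group. Male 8 had miR-17-5p in the well-fed range, but its miR-25, at 8763 CPM, was below every well-fed male.

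**Figure D2:**
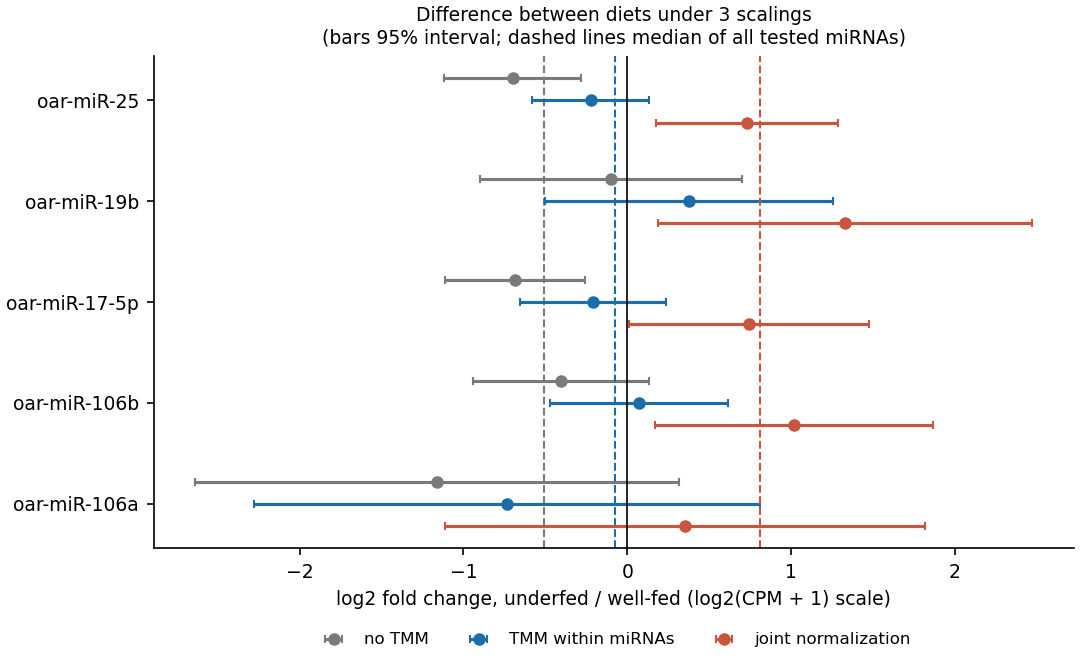
Log2 fold change (underfed/well-fed) of the 5 members with 95% intervals from limma under no TMM, TMM within miRNAs, and joint normalization of miRNAs and piRNAs; dashed lines are the medians of all 244 tested miRNAs (-0.51, -0.076 and 0.81). Members shift with the dashed lines because a change of scaling moves all miRNAs of a library together. miR-25 and miR-17-5p lie close to the median.

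Without underfed male 1, the difference in miR-25 was -0.31 ± 0.16 with TMM (FDR = 0.168 by limma) and -0.86 ± 0.15 on deposited CPM (FDR = 0.000293 by limma). The difference in miR-17-5p became -0.077 ± 0.19 with TMM (FDR = 0.809 by limma), and that in miR-19b rose to 0.70 ± 0.35 (FDR = 0.163 by limma). In the deeper libraries alone, the TMM values were -0.13 ± 0.20 for miR-25, -0.36 ± 0.23 for miR-17-5p, 0.18 ± 0.45 for miR-19b, -0.31 ± 0.44 for miR-106a and 0.14 ± 0.24 for miR-106b, with 0 of 5 past the FDR. In that fit 25 of the 247 tested miRNAs were DE, so that 0 of 5 members says little about the family.

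A ratio of members within a male depends on the scaling between libraries only through the added 1 CPM, and it asks whether members moved apart with diet. The 10 pairs of members were compared as log2((CPM + 1)/(CPM + 1)) by a two-sided exact permutation test over all arrangements of the males. None of the 10 had an unadjusted p under 0.05. For miR-25 over miR-17-5p the mean was 3.99 ± 0.39 for the well-fed and 3.97 ± 0.71 for the underfed group (SD, n = 8 each), a difference of -0.015 ± 0.28 (SE; exact permutation p = 0.962). For the neighbours miR-25 and miR-106b it was 5.45 ± 0.40 and 5.15 ± 0.72, a difference of -0.30 ± 0.29 (SE; exact permutation p = 0.324). For the other neighbours, miR-19b over miR-17-5p, it was -0.45 ± 0.72 and 0.14 ± 0.79, a difference of 0.59 ± 0.38 (SE; exact permutation p = 0.139, adjusted over the 10 pairs 0.465).

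The pair with the smallest p was miR-17-5p over miR-106b, paralogues with the same seed from different clusters. Their log2 ratio ran from 1.19 to 1.81 in well-fed males (median 1.45) and from 0.83 to 2.11 in underfed males (median 1.05). The difference was -0.28 ± 0.16 (SE; exact permutation p = 0.109, adjusted 0.465). Underfed male 6 had the highest ratio, and it rested on 13 reads of miR-17-5p and 3 of miR-106b. Without that male the difference was -0.41 (exact permutation p = 0.00249, adjusted 0.0249).

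In the 13 deeper libraries the ranges of this ratio did not overlap, at 1.19 to 1.81 in 7 well-fed and 0.83 to 1.17 in 6 underfed males. Only this ratio of the 10 did so, and ratios with other tested miRNAs were not examined. The difference there was -0.50 ± 0.10 (SE; exact permutation p = 0.00117, adjusted 0.0117), and that p is the smallest the 1716 arrangements can give. miR-17-5p was thus lower relative to miR-106b in underfed males of the deeper libraries, while over all 16 males the difference did not pass the threshold. Underfed male 8, another shallow library, was at 1.38, inside the well-fed range. Some reads of miR-17-5p were divided with matching sequences, and their part in this ratio was not tested.

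**Figure D3:**
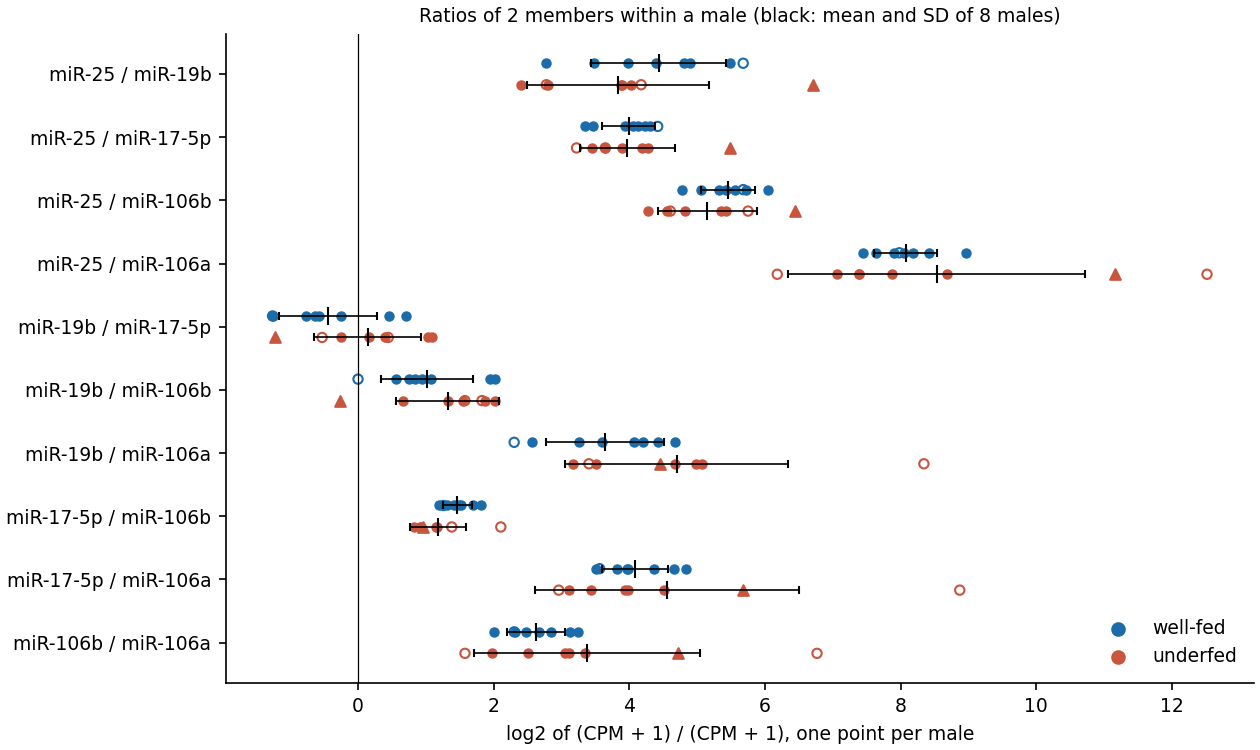
Log2 ratio of (CPM + 1) for the 10 pairs of members in each male, with mean ± SD of 8 males in black. Open points are the 3 libraries below 100000 miRNA reads and triangles underfed male 1; for miR-17-5p/miR-106b the filled points and triangle of underfed males end at 1.17, below the well-fed minimum of 1.19, and the open underfed points lie at 1.38 and 2.11.

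The remaining products of the clusters were listed among miRNAs that the authors predicted in sheep, here named candidate-miR with the authors' numbers, and the study paired 8 of them with homologues of this family. All 8 passed the CPM filter. candidate-miR-121, paired with miR-92a, was the most abundant of the whole family, at 31162 ± 9011 CPM (well-fed) and 20259 ± 10495 CPM (underfed; SD, n = 8 each), at ranks 8 and 9. candidate-miR-45, paired with miR-93 of the miR-106b-25 cluster, came next among the predicted ones, at 4395 ± 638 and 2509 ± 1144 CPM. candidate-miR-93, paired with miR-20a, was at 686 ± 226 and 460 ± 251 CPM, close to miR-17-5p. The candidates paired with miR-18a (candidate-miR-97, 108 ± 40.3 and 93.8 ± 57.5 CPM), miR-363 (candidate-miR-14, 61.7 ± 28.6 and 48.7 ± 33.6 CPM), miR-20b (candidate-miR-44, 51.4 ± 25.8 and 33.0 ± 17.2 CPM), miR-19a (candidate-miR-171, 15.7 ± 12.4 and 20.2 ± 17.7 CPM) and miR-18 (candidate-miR-104, 5.54 ± 4.41 and 6.67 ± 5.03 CPM) were lower.

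None of the 8 was DE or had FDR under 0.05. The modelled difference was below 0 for 5 and above 0 for 3, with a median of -0.10. candidate-miR-45 alone had an unadjusted p under 0.05 by limma, with a log2 fold change of -0.42 ± 0.16 (SE; FDR = 0.108 by limma) and an FC of 0.571. Its CPM ran from 3620 to 5341 under the well-fed diet and from 1635 to 5129 under the underfed diet. In CPM, 7 of 8 underfed males were below every well-fed male, as for miR-25 of the same cluster and miR-17-5p of another. For miR-106b, of the cluster of miR-25, it was 4 of 8, with the share over all tested miRNAs not counted. At least 7 of 8 lay below for 8.2% of the tested miRNAs. After division by the TMM factor, 5 of 8 were below for candidate-miR-45, and the share over all tested miRNAs was not counted. For candidate-miR-121 the log2 fold change was -0.21 ± 0.18 (FDR = 0.483 by limma), and for candidate-miR-93 -0.23 ± 0.34 (FDR = 0.677 by limma). With CPM as deposited, 2 of the 8 had FDR under 0.05. On that scale 15.6% of the tested miRNAs were lower at FDR under 0.05.

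Variation between males of one diet differed widely within the family. In the deeper libraries the SD within a diet, on the log2(CPM/TMM factor + 1) scale, was 1.01 for miR-19b and 0.90 for miR-106a, above the median of 0.545 for all tested miRNAs. The SD was 0.42 for miR-106b, 0.39 for miR-17-5p and 0.35 for miR-25, below that median.

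Likeness between miRNAs was described by Pearson's r of their deviations from the diet means over the 13 deeper libraries. The points share library, depth and TMM factor, and r is given without a p. oar-miR-17-5p and oar-miR-106b were each other's closest of all tested miRNAs (r = 0.90, and 0.83 without underfed male 1). The 4 products of the miR-17 cluster other than miR-17-5p and miR-92a also varied together: miR-19b had an r of 0.92 with candidate-miR-171 (miR-19a), 0.93 with candidate-miR-93 (miR-20a) and 0.88 with candidate-miR-97 (miR-18a). Without underfed male 1 these were 0.90, 0.84 and 0.72. The r between miR-17-5p and its neighbour miR-19b was 0.71, and 0.43 without that male. Such values were not particular to the cluster. By r over the 13 libraries, miR-17-5p was only 44th among the tested miRNAs for miR-19b. In turn, miR-19b was 23rd and candidate-miR-171 34th for miR-17-5p. For miR-19b, candidate-miR-93 was 3rd, candidate-miR-171 6th and candidate-miR-97 10th.

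Members of 1 cluster did not always vary together. oar-miR-25 followed candidate-miR-45 (miR-93) at r = 0.79, but its r with oar-miR-106b of the same cluster was -0.25, and 0.071 without underfed male 1. candidate-miR-121 (miR-92a) had an r of -0.50 with miR-17-5p and -0.49 with miR-19b, which moved to -0.18 and -0.13 without that male. The study places this miRNA in both the miR-17 and the miR-106a-363 cluster, so that its value combines copies from both. oar-miR-106a had an r of 0.68 with miR-17-5p and 0.69 with miR-19b, and of 0.25 and 0.17 without underfed male 1, in which it had 1 read.

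**Figure D4:**
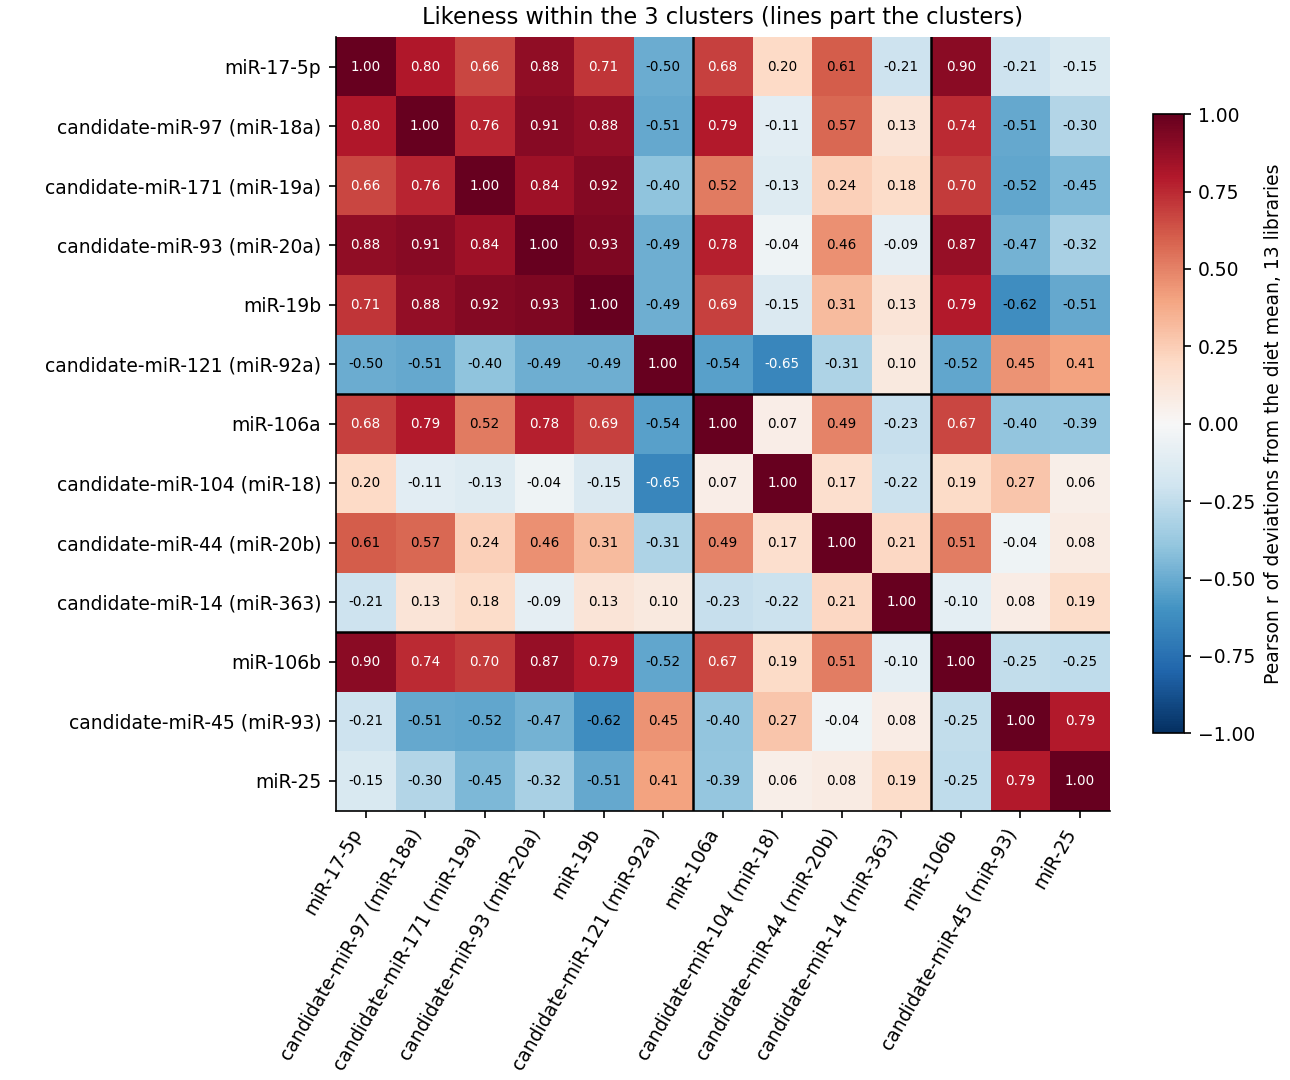
Pearson's r of deviations from the diet mean of log2(CPM/TMM factor + 1) over 13 libraries, for the 5 known members and the 8 predicted ones (homologue in brackets), with lines between the miR-17, miR-106a-363 and miR-106b-25 clusters. The miR-92a homologue is drawn with the first, although the study places it in the miR-106a-363 cluster as well. miR-17-5p, miR-19b and the miR-18a, miR-19a and miR-20a homologues form a block of values from 0.66 to 0.93, miR-106b is close to this block, and miR-25 pairs with the miR-93 homologue at 0.79. Without underfed male 1 the r of miR-17-5p was 0.43 with miR-19b, 0.46 with the miR-19a homologue and 0.56 with the miR-18a homologue. Many miRNAs that are not drawn have an r as high.

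Outside the 5 members, the miRNAs most like each were as follows. For oar-miR-17-5p they were candidate-miR-147 (r = 0.89), candidate-miR-93 (0.88) and oar-miR-148a (0.81). For oar-miR-19b they were oar-miR-29b (0.96), oar-miR-21 (0.94) and candidate-miR-93 (0.93). The closest to oar-miR-25 were oar-miR-409-3p (0.83), oar-miR-16b (0.79) and candidate-miR-45 (0.79). For oar-miR-106b they were candidate-miR-93 (0.87), oar-miR-30b (0.83) and oar-miR-374a (0.81). The likeness of oar-miR-106a to oar-miR-218a (0.87), oar-miR-412-3p (0.86) and candidate-miR-22 (0.82) fell to 0.61, 0.68 and 0.23 without underfed male 1. For the other 4 members, the r with each named miRNA was 0.63 to 0.92 without that male.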

How the data were processed

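Small RNAs of testis were measured in 16 males, 8 per diet, grouped by the diet label. The authors demultiplexed 50-base reads with CASAVA 1.8, removed other non-coding RNAs, predicted miRNAs on Oar_v3.1, and counted miRNAs (18 to 25 nt) on known and predicted precursor sequences. The authors used edgeR for their comparison. Deposited values were CPM within class, with miRNAs and piRNAs each scaled to 1000000, so that depth came from the value of 1 read (92.8% to 99.0% of low miRNA values were whole within 0.01 read).

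Here limma 3.58.1 (R 4.3.3, empirical Bayes trend) was fitted on log2(CPM/TMM factor + 1), with TMM trims of 30% and 5%, for 244 miRNAs that exceeded 5 CPM in 8 or more libraries. The fit was tested on simulated data. The log2 ratios of members had exact permutation tests (numpy 2.4.6), checked on random values against scipy 1.17.1. Named miRNAs are the 5 members, the 8 predicted relatives and the 3 most alike of each member. Members and lists were chosen with earlier results of these data known. Alternatives covered scaling, filter, pseudocount, covariate, weights, voom, block, depth and each male left out. Leaving out underfed male 1 together with another scaling, and from r, was chosen after seeing the data. RefSeq positions served only to find neighbouring genes. Mature sequences were not used here.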

Additional observations from a re-analysis of the deposited data

Results flagged for a closer look

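Values far from the rest of their group, by Dixon's ratio of the gap to the group's range, were found in 8 of the 30 groups examined (critical value 0.526 for 8 males), where chance alone marks about 1 in 20. The groups share males and members and are not independent. In CPM, underfed male 1 was far above the other underfed males for oar-miR-25 (ratio 0.729), at 17594 CPM against at most 8763. Underfed male 8 was far above its group for oar-miR-17-5p (0.637), at 938 CPM against at most 590, and for oar-miR-106a (0.550), at 120 CPM against at most 53.9. Underfed male 1 was also the highest for the log2 ratio of miR-25 to miR-19b (0.589) and of miR-25 to miR-17-5p (0.535). Underfed male 6, with 27797 miRNA reads, was the highest for the log2 ratio of miR-19b to miR-106a (0.633), of miR-17-5p to miR-106b (0.567) and of miR-17-5p to miR-106a (0.541). In that library miR-106a was listed at 0 and miR-106b had 3 reads.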

How the results depend on the processing

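The count of DE members was 0 with all 16 males except under no TMM, where it was 2 (miR-25 and miR-17-5p), and it was 0 in each fit that left out 1 male with TMM. With underfed male 1 left out it was 2 under no TMM and 1 under joint normalization, a pairing of choices made after seeing the data. DE also needs the FC threshold. In that joint fit, the log2 fold change was 1.78 for miR-19b (FDR = 0.00177 by limma) and 1.24 for miR-106b (FDR = 0.00690 by limma). It was 1.00 for miR-17-5p (FDR = 0.00573 by limma), 0.77 for miR-25 (FDR = 0.0136 by limma) and 0.73 for miR-106a (FDR = 0.419 by limma). The count over all tested miRNAs, 8 of 244, was 36 with no TMM, 60 with joint normalization, 18 with the class total as a covariate, 52 with sample weights, 26 with voom, 25 in the deeper libraries (of 247 that passed the filter there), 15 by FDR alone and 15 with FC from TMM-scaled CPM. With 1 male left out and the filter applied anew, it was 0 to 22 (22 without underfed male 1, 14 without underfed male 8, 0 without well-fed male 2 or 8), and 58 and 72 without underfed male 1 under no TMM and joint normalization. The cause of these differences was not tested.

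Directions turned for miR-19b (-0.097) and miR-106b (-0.40) with no TMM, the latter also without underfed male 1 (-0.38). With joint normalization they turned for miR-17-5p (0.74), miR-25 (0.73) and miR-106a (0.35), and without underfed male 1 the values were 1.00, 0.77 and 0.73. With 1 male left out, miR-106b ranged from -0.052 to 0.17 and miR-106a from -1.06 to -0.13, nearest 0 without underfed male 6. Predicted relatives with FDR under 0.05 numbered 2 with no TMM and 0 in the deeper libraries. Of the 10 ratios, 1 passed in the deeper libraries and 0 to 1 with 1 male left out. In the deeper libraries the ratio of miR-25 to miR-17-5p turned to 0.23 and that of miR-17-5p to miR-106a to -0.052. With 1 male left out the first ranged from -0.23 to 0.092, miR-25 to miR-106a from -0.11 to 0.80 and miR-17-5p to miR-106a from -0.14 to 0.70, both lowest without underfed male 6. Without that male the ratio of miR-17-5p to miR-106b passed.

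Replicate numbers are shared between the diets but did not pair the males: deviations of same-numbered males correlated at -0.18 to 0.28 (mean 0.047), with 3 of 8 over 0.1, and 2 of 8 well-fed males correlated best with their own number. With the replicate number as a block, 7 miRNAs, 0 members and 0 relatives were DE, and 0 of the 10 ratios passed. Depth limits miR-106a: in the shallowest library 3 reads are 175 CPM, above each of its values.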
